A study of Mus musculus with 12 samples.

Results

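The effect of an siRNA against Bmal1 on cells that received no TGFb was measured in 6 of the 12 libraries of the series: 3 transfected with a scrambled siRNA and 3 with the Bmal1 siRNA, all given vehicle. The rule took in every gene of the deposited table and compared its FPKM (fragments per kilobase of transcript, scaled to library size) between these 3 and 3 libraries on the log2(FPKM + 1) scale. All cells were EMS404, a mouse hepatic stellate cell line on the C57Bl6 background that carries human TLR4 and was immortalised with SV40, so controls and siRNA cells share both alterations. The labels give 48 h from transfection to treatment and 24 h of treatment. The other 6 libraries had the same siRNAs with 10 ng/mL TGFb and served here to ask which changes were also present in separate libraries. No source used here gives the siRNA sequences, so changes through Bmal1 and other effects of the siRNA cannot be told apart.

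BMAL1, the product of Arntl, pairs with CLOCK or NPAS2 and binds E-boxes in the promoters of Per, Cry, Nr1d and D-box factor genes. PER and CRY proteins inhibit this pair, while the REV-ERB receptors (Nr1d1, Nr1d2) repress Arntl. BMAL1 belongs to the same bHLH-PAS protein family as the hypoxia-inducible factors and the aryl hydrocarbon receptor. Stellate cells store vitamin A in the healthy liver and deposit collagen in the injured one.

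The promoters of 5 genes are shown as examples of E-box genes of the clock and of genes of the hypoxia response. Of these, Ciart and Cry1 were not called. Each sequence holds the 250 bases before the RefSeq start of its gene on GRCm38.p6, on the gene's own strand. Capitals mark the E-box CACGTG for Ciart (chr3:95882229-95882478, minus strand) and Cry1 (chr10:85185055-85185304, minus strand). Capitals mark ACGTG or its reverse complement, the core of the hypoxia response element, for P4ha2 (chr11:54100674-54100923, plus strand), Egln3 (chr12:54203875-54204124, minus strand) and Bnip3 (chr7:138909507-138909756, minus strand).
Ciart: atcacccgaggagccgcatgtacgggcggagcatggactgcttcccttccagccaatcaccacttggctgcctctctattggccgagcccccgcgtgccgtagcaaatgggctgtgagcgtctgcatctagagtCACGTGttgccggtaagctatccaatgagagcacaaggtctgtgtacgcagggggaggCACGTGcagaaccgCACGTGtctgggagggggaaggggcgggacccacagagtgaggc
Cry1: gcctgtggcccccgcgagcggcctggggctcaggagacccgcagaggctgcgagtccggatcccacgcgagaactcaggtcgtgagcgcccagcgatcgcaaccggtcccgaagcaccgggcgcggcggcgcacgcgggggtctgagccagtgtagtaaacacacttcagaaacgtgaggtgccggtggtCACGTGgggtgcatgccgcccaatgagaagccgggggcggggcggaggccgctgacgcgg
P4ha2: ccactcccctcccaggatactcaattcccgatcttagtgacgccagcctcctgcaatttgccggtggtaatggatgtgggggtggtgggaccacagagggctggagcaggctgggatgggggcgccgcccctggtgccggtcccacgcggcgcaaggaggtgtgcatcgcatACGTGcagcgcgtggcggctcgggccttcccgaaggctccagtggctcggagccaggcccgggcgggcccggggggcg
Egln3: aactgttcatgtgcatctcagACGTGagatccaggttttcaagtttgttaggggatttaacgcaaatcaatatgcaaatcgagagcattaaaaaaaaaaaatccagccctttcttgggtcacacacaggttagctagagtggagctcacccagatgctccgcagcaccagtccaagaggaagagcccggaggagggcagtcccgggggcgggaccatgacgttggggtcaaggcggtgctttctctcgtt
Bnip3: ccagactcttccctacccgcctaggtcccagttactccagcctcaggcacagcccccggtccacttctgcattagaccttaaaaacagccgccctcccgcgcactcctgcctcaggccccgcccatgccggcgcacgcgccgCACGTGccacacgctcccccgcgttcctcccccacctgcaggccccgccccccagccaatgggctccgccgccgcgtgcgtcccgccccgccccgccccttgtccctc
The Ciart E-boxes begin 116, 58 and 44 bases before the start, and that of Cry1 begins 60 bases before it. In P4ha2 the core begins 78 bases before the start, in Egln3 229 bases before it. In Bnip3 both strands of a single CACGTG hold the core, 108 bases before the start.

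Among the 8924 tested genes with a RefSeq window of 300 bases (250 before the start and 50 after it), 12.1% held CACGTG and 29.9% held ACGTG, searched on both strands. Every CACGTG also holds ACGTG, so the latter share includes the former. The E-box was present in 4 of the 14 core clock genes with a window (28.6%). None of the called clock genes (Arntl, Nr1d1, Nr1d2 and Hlf) held it in a window. ACGTG was present in 16 of the 20 tested hypoxia response genes with a window (80.0%), and in 8 of the 9 with a window among those called higher (88.9%). Over all genes with a window, 35.8% of those called higher and 22.5% of those called lower held ACGTG. For CACGTG these shares were 9.88% and 10.8%, both under the 12.1% of all genes. These matches describe letters only.

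The FPKM totals of the 6 libraries ran from 457642 to 483957, with 13777 to 13975 genes above 0, and the depth in reads is unknown. The first scrambled library stood apart from the other 5. On the first principal component (58.1% of the variance) it lay at 15.78, against 2.9 and 3.1 for the other scrambled libraries and -3.24 to -10.16 for the Bmal1 siRNA libraries. Its longest genes were low against its shortest ones, by -0.212 on the log2 scale (genes in 5 bins of transcript length), where the other 5 libraries lay between -0.007 and 0.09. Its genes of highest GC content stood at 0.173 against those of lowest, where the other 5 libraries lay between -0.115 and 0.042. The triplicates are described as biological without a statement on separate cultures, so the spread behind each p-value may be partly technical.

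Of 11187 genes tested with limma, 245 (2.19%) were called at an adjusted p under 0.05: 120 higher (1.07%) and 125 lower (1.12%) with the Bmal1 siRNA. On the log2(FPKM + 1) scale no called change reached 2-fold, and the median change over all genes was 0.01. That scale understates low genes: the plain ratio of mean FPKM was above 2 for 7 called rises, all from a scrambled mean of 2.22 FPKM or less. The largest was that of the histone gene Hist1h3h (10.1), from a mean of 0.09 to one of 0.94 FPKM. Others were Lef1 (2.45), Cox6a2 (2.32), Egln3 (2.13) and Itgb8 (2.11). The ratio was not under 0.5 for any called fall. An unadjusted p under 0.05 was reached by 2857 genes (25.5%). The groups did not overlap for 1870 genes that were higher (16.7%) and 1686 that were lower (15.1%). The number of calls rested on single libraries: it was 68 (0.607% of genes, 0.268% higher and 0.339% lower) without scrambled library 1, 24 without scrambled library 3, 4 without Bmal1 siRNA library 2, 2 without Bmal1 siRNA library 3 and 504 without Bmal1 siRNA library 1. A fit over all 12 libraries called 74 genes (0.66%), of which 72 were among the 245. With libraries scaled to equal totals 59.7% of the calls were higher, against 49.0% as deposited.

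**Figure D1:**
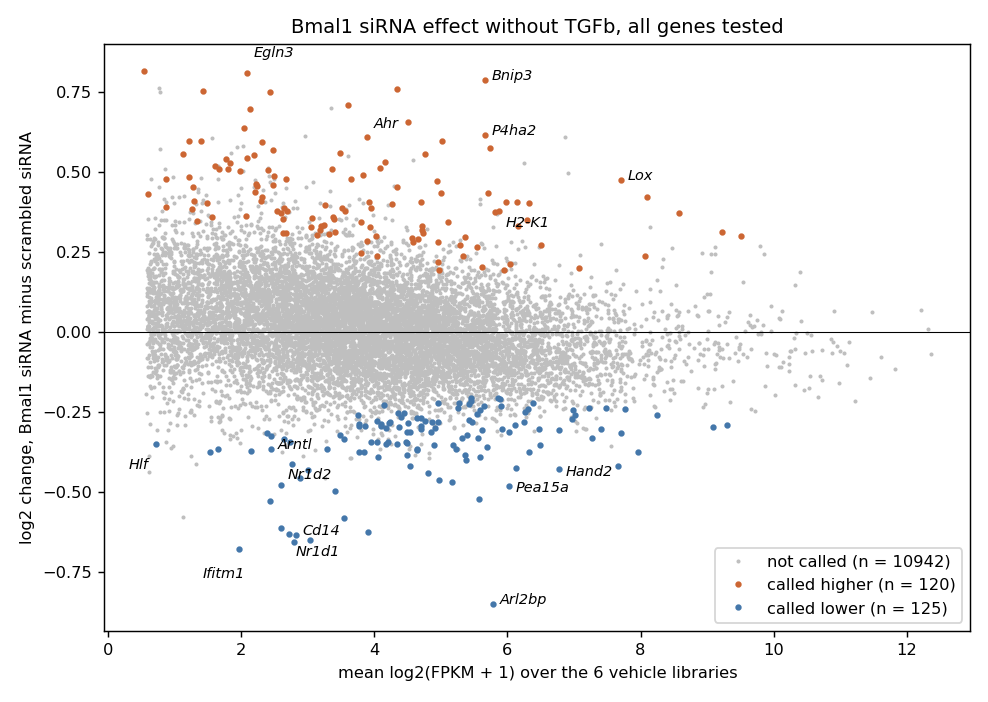
Mean log2(FPKM + 1) over the 6 vehicle libraries (x axis) against the log2 change, Bmal1 siRNA minus scrambled siRNA (y axis); each point is 1 of the 11187 genes tested. The 120 called rises (orange) lie under a log2 change of 0.82, and Arl2bp, at -0.85, lies below all other genes called lower (blue).

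The siRNA lowered its own target moderately. Arntl (chromosome 7, 113207465 to 113314126 on mm10) was at 5.43, 5.19 and 4.91 FPKM in the scrambled libraries and at 3.9, 3.87 and 3.59 FPKM with the Bmal1 siRNA. The groups did not overlap, and the mean was 26.9% less with the siRNA. The change was -0.37 on the log2 scale (SE 0.0674, adjusted p = 0.0357). An exact two-sided permutation test of the single gene gave p = 0.1, the smallest of its 20 arrangements. The call was kept in 1 of the 6 fits that left out a library (without Bmal1 siRNA library 1), with adjusted p from 0.0307 to 0.169. The values are of the transcript and say nothing of BMAL1 protein.

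The other activators of the loop were not called. Clock, the partner of BMAL1, was at 5.67, 7.1 and 6.76 FPKM in the scrambled and 6.47, 7.08 and 6.43 FPKM in the Bmal1 siRNA libraries, with overlapping groups. Arntl2, the paralog of Arntl, was at 0.97, 1.12 and 1.15 FPKM in the scrambled libraries and 1.75, 1.39 and 1.41 FPKM with the siRNA (log2 change 0.27, adjusted p = 0.0924). Each Bmal1 siRNA library thus lay above each scrambled one for the paralog. Npas2, the alternative partner, stood at 0.32, 0.39 and 0.42 against 0.53, 0.66 and 0.67 FPKM, also without overlap, but fell under the 0.5 FPKM minimum for testing.

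The REV-ERB receptors, which are direct E-box targets of BMAL1, fell together. Nr1d1 (chromosome 11, 98767932 to 98775333) was at 7.05, 7.34 and 7.23 FPKM in the scrambled libraries and 4.73, 3.91 and 4.28 FPKM with the Bmal1 siRNA. Every scrambled library exceeded every Bmal1 siRNA library, and the change was -0.63 (SE 0.0713, adjusted p = 0.00923). It was called in 5 of the 6 fits without a library, losing the call without Bmal1 siRNA library 3 (adjusted p = 0.076). Nr1d1 shares 263 exon bases with Thra, and without stated strand use their reads cannot be told apart. Nr1d2 stood at 5.32, 6.95 and 6.36 FPKM in the scrambled and 4.11, 4.58 and 3.79 FPKM in the Bmal1 siRNA libraries (-0.48, SE 0.0924, adjusted p = 0.0368). Its groups were also apart, and it kept the call in 2 of the 6 fits without a library. Rora stayed under the minimum, at 0.15, 0.28 and 0.2 against 0.21, 0.51 and 0.44 FPKM.

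No period or cryptochrome gene was called, though 4 of the 6 genes of this list (with Ciart) had an unadjusted p under 0.05, as had 25.5% of all genes. Per1 was at 14.4, 14.3 and 14.4 FPKM in the scrambled and 14.5, 13.6 and 14.6 FPKM in the Bmal1 siRNA libraries (95% interval of the log2 change -0.13 to 0.10). Per2 was at 2.97, 3.24 and 3.36 against 3.61, 4.06 and 4.18 FPKM (0.24, adjusted p = 0.0932). Cry2 was at 5.2, 4.99 and 4.53 against 6.03, 5.83 and 6.83 FPKM (0.29, adjusted p = 0.0612). In both Per2 and Cry2 the Bmal1 siRNA libraries lay above all scrambled ones without passing the test, and the same held for Cry1 (0.17, adjusted p = 0.144). Ciart, a repressor of the BMAL1 and CLOCK pair whose promoter holds the 3 E-boxes shown above, was at 8.74, 9.75 and 10.3 FPKM in the scrambled and 9.81, 12.4 and 15.1 FPKM in the siRNA libraries. Its groups overlapped (0.32, adjusted p = 0.134). Per3 stood at 0.03 (adjusted p = 0.837).

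Among the D-box factors, which relay clock output, Hlf alone was called. It was at 0.84, 0.91 and 0.81 FPKM in the scrambled libraries and 0.47, 0.43 and 0.46 FPKM with the siRNA (-0.35, SE 0.0757, adjusted p = 0.0464). The groups were well apart, yet the call was lost in each of the 6 fits without a library, and at under 1 FPKM the gene rests on few fragments. Dbp, a classical E-box target, was at 5.48, 5.06 and 5.95 against 4.81, 5.99 and 5.71 FPKM, with nearly equal means (95% interval of the log2 change -0.19 to 0.18). Dbp shares 539 exon bases with Sphk2. Tef and the D-box repressor Nfil3 were not called (-0.13 and 0.06). Bhlhe40 (DEC1), which competes with BMAL1 for E-boxes, was at 15.7, 21 and 20.3 FPKM in the scrambled and 22.2, 29.4 and 32.9 FPKM in the siRNA libraries (0.54, adjusted p = 0.057). Its groups did not overlap, and its relative Bhlhe41, too low to be tested, stood at 0.24, 0.32 and 0.23 against 0.46, 0.56 and 0.73 FPKM.

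Over the core clock lists 17 of 21 members were tested. Of these 4 were lower (Arntl, Nr1d1, Nr1d2, Hlf), against 1.12% of all genes, none was higher and 13 were not called. Arntl is the target of the siRNA, so its fall adds nothing to the comparison with that share. The median was 0.03 against 0.01 for all genes. None of the 20 tested kinases, ligases and partners of the clock was called (median 0.03, with 5 at an unadjusted p under 0.05, as for 25.5% of all genes). Csnk1e, the kinase CK1 epsilon, came nearest to the threshold (-0.21, adjusted p = 0.061). None of 10 tested output genes was called either (median 0.10; 3 at an unadjusted p under 0.05), Nampt, the NAD salvage enzyme, standing at 0.28 (adjusted p = 0.0625). Without both first libraries, an alternative added after the data were seen that called 11.3% of all genes (5.3% higher, 6.0% lower), 3 core clock genes were called higher and 4 lower.

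**Figure D2:**
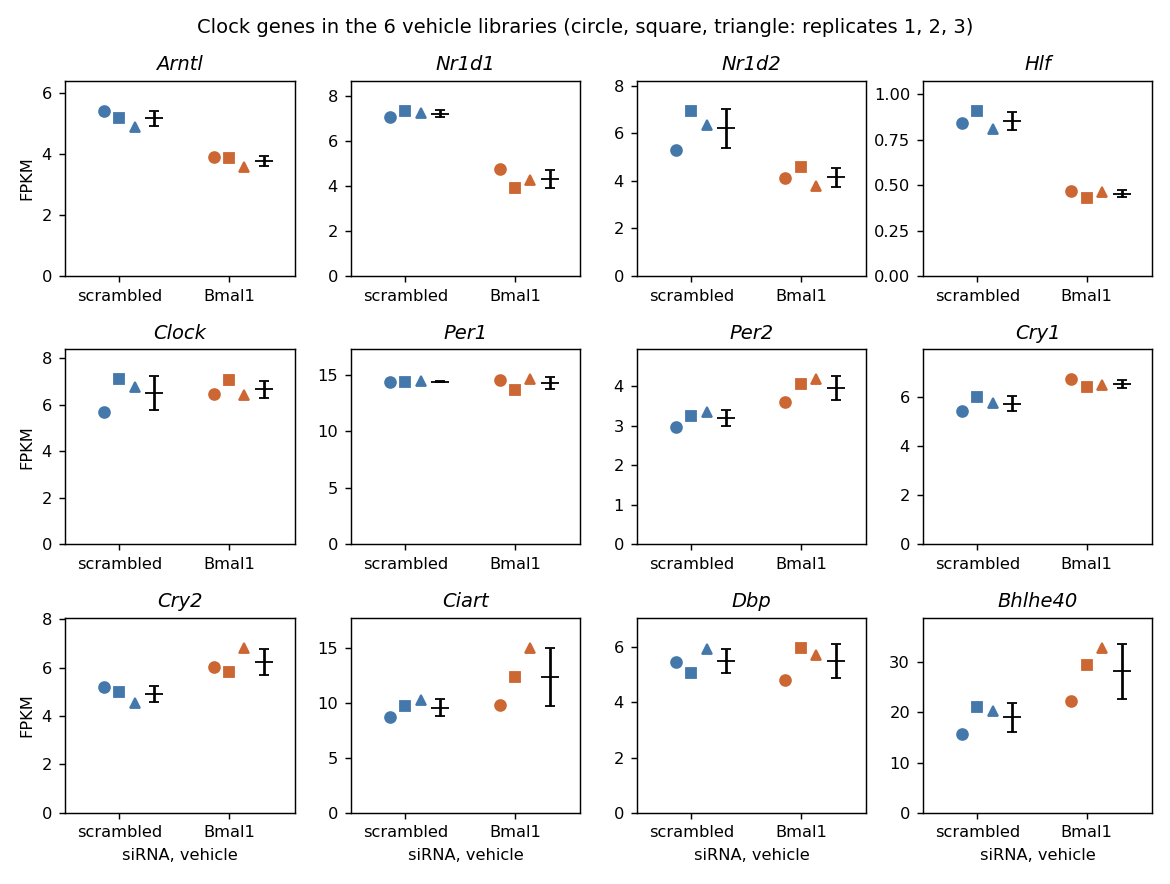
FPKM (y axes, from 0) of 12 clock genes in the 3 scrambled (blue) and 3 Bmal1 siRNA (orange) vehicle libraries; the bar and whiskers give mean and SD (n = 3). Arntl, Nr1d1, Nr1d2 and Hlf are lower in all 3 Bmal1 siRNA libraries, Per1 and Dbp are level, and Per2, Cry1, Cry2 and Bhlhe40 are higher in all 3.

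The change with the smallest adjusted p was not in a clock gene. Arl2bp (chromosome 8, 94666600 to 94674425), whose product binds ARL2 and ARL3, small GTPases, was at 73.4, 73.9 and 71.2 FPKM in the scrambled libraries and 41.1, 38.9 and 39.7 FPKM with the Bmal1 siRNA. The mean was 45.2% less, against a spread of a few FPKM within either group (-0.85, SE 0.0444, adjusted p = 9.59e-06). Its estimate was larger in size than that of Arntl (-0.37), a difference between genes that was not tested. Of 17 tested members of the ARL2 and ARL3 module it was the only one called. Pea15a (chromosome 1, 172196728 to 172206804), a phosphoprotein that holds ERK in the cytoplasm, was at 77.7, 75.7 and 73.8 against 53.1, 53.3 and 55.5 FPKM (-0.48, SE 0.0442, adjusted p = 0.00176). It shares 123 exon bases with Dcaf8. Arl2bp and Pea15a were the only genes called in all 6 fits that left out a library, and they were also called in every other alternative run.

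Both genes were also lower in the separate TGFb libraries, Arl2bp by -0.68 (adjusted p = 0.00055) and Pea15a by -0.38 (adjusted p = 0.00199). The effects in the 2 treatments were not called different (adjusted p = 0.102 and 0.245 for the interaction).

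The other large called falls were in genes of varied kind. Ifitm1, an interferon-inducible membrane protein, was at 4.47, 3.7 and 3.74 against 2.22, 1.95 and 2.12 FPKM (-0.68, adjusted p = 0.0115). Cd14, the co-receptor that hands lipopolysaccharide to TLR4, was at 8.85, 7.06 and 7.52 FPKM in the scrambled and 4.97, 4.6 and 4.41 FPKM in the Bmal1 siRNA libraries (-0.63, adjusted p = 0.0147). It was the only call among 28 tested genes of LPS sensing and chemokines (median 0.01). Haptoglobin (Hp) stood at 7.44, 6.26 and 5.9 against 4.6, 3.29 and 3.9 FPKM (-0.61), and Vstm2a, an immunoglobulin-domain protein, at 8.66, 7.05 and 7.53 against 5.14, 4.21 and 4.3 FPKM (-0.66). In each of these genes every Bmal1 siRNA library lay below every scrambled one. Falls of -0.52 to -0.65 were also called for Peg10, an imprinted retrotransposon-derived gene, Dlk2, a homolog of the Notch modulator DLK1, Rbm38, an RNA-binding p53 target, and Hist1h4i. Hist1h4i belongs to a near-identical histone family and is uncertain.

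Transcription factors of the stellate and mesenchymal list included 2 called falls among 19 tested genes (against 1.12% of all genes) and no rise (median -0.07). Hand2, which marks fibrogenic cells of the liver, was at 135, 118 and 127 FPKM in the scrambled and 101, 89.3 and 91.6 FPKM in the Bmal1 siRNA libraries (-0.43, SE 0.061, adjusted p = 0.0193). Foxf2 was at 40.5, 33.4 and 33.5 against 28.8, 23.6 and 24.6 FPKM (-0.46, adjusted p = 0.0357). Both groups were apart in both genes, and Hand2 shares 461 exon bases with the transcript Hand2os1. Cebpb, an acute-phase and adipogenic factor, fell from 312, 272 and 267 to 229.9, 209 and 215 FPKM (-0.38, adjusted p = 0.0289), and shares 312 exon bases with Tmem189. Ahr, the aryl hydrocarbon receptor, rose instead, from 8.63, 12.4 and 12.4 FPKM to 15.6, 19.2 and 17.2 FPKM (0.61, SE 0.118, adjusted p = 0.0374), as the only call among 8 tested members of its pathway. Lef1, a Wnt effector at under 1 FPKM, was also called higher (0.43, adjusted p = 0.0392).

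Hypoxia response genes were the list with the most calls. Of 26 members of the list of direct targets 24 were tested; 10 were called higher (against 1.07% of all genes), none lower and 14 were not called, and the median change was 0.40 against 0.01 for all genes. In 19 of the 24 every Bmal1 siRNA library exceeded every scrambled library, as in 16.7% of all genes, while 3 of the 24 had a change below 0. Hypoxia-inducible factors bind ACGTG cores when prolyl hydroxylases lack oxygen, and Egln1 and Egln3, which encode 2 of these hydroxylases, are themselves targets. Egln3 was at 1.69, 2.35 and 2.62 FPKM in the scrambled and 3.27, 4.78 and 6.13 FPKM in the siRNA libraries (0.81, SE 0.164, adjusted p = 0.0416). Egln1 was at 22.6, 27.4 and 26.2 against 29.6, 41.7 and 47.4 FPKM (0.60, adjusted p = 0.0492). In both genes Bmal1 siRNA library 1 lay closest to the controls.

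Bnip3, the mitophagy receptor, was at 31.2, 41.1 and 41.2 FPKM in the scrambled and 46.97, 72.8 and 81.97 FPKM in the Bmal1 siRNA libraries (0.79, SE 0.17, adjusted p = 0.0464). P4ha2, a collagen prolyl hydroxylase subunit, was at 38.6, 41.3 and 39.9 against 49.04, 65.9 and 72.4 FPKM (0.61, adjusted p = 0.0327). Ero1l, the disulfide oxidase of the endoplasmic reticulum, stood at 12.5, 16.4 and 14.9 against 19.7, 26.1 and 31.3 FPKM (0.76, adjusted p = 0.0356). These genes share the same order of libraries: scrambled library 1 lowest, and Bmal1 siRNA library 1 between the scrambled libraries and the other siRNA libraries. Pdk1, the kinase that closes pyruvate entry into the mitochondrion (0.66), Ak4 (0.64), Ddit4, an inhibitor of mTORC1 (0.56), P4ha1 (0.41) and the growth factor Vegfa (0.34) made up the 10 calls. Ndrg1 missed the threshold at 75.4, 104 and 102 against 106, 153 and 179 FPKM (0.61, adjusted p = 0.0681). Hif1a, which encodes the oxygen-regulated subunit, was not called (0.14, adjusted p = 0.179); its regulation is largely at the protein. Cited2, which competes with HIF1A for its co-activator, was called lower (-0.24, adjusted p = 0.0475).

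The number of hypoxia calls rested on single libraries, while the median did not change sign. It was 0 without scrambled library 1 (median 0.36), scrambled library 3, or Bmal1 siRNA library 2 or 3, 3 without scrambled library 2, and 19 without Bmal1 siRNA library 1 or without both first libraries (where 5.3% of all genes were called higher). Over all genes 30 were called higher without scrambled library 1, 64 without scrambled library 2 and 12 without scrambled library 3. The number was 275 without Bmal1 siRNA library 1 and 0 without Bmal1 siRNA library 2 or 3. The loss of calls was thus not particular to this list. The median stayed between 0.31 and 0.51 when a library was left out, and the fit over 12 libraries called 1 of the 24 (higher, as for 0.294% of all genes). With transcript length and GC content corrected, 8 were called and the median was 0.39. The part of scrambled library 1 and of Bmal1 siRNA library 1 in the size of these changes was not tested further.

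Glycolytic genes were also called in 1 direction: 7 of 28 tested were called higher, none lower and 21 were not called (median 0.16), where 1.07% of all genes were called higher. Only Pdk1 among the 7 is also in the hypoxia list. That list does not hold every hypoxia target, so the 2 lists are not separate evidence. The monocarboxylate exporter Slc16a3 was at 40.6, 44.1 and 43.5 FPKM in the scrambled and 51.6, 69.01 and 74.3 FPKM in the Bmal1 siRNA libraries (0.58, adjusted p = 0.0357). Pfkp, a phosphofructokinase, was at 10.3, 11.3 and 11.3 against 13.5, 16.2 and 17.9 FPKM (0.49, adjusted p = 0.0324), and it shares 748 exon bases with Pitrm1. Pgk1 (0.42), Pfkl (0.40), Hk2 (0.36) and Ldha (0.31) were the others. Ldha, the abundant lactate dehydrogenase, was at 552, 529 and 524 against 597, 679.7 and 724 FPKM. None was called without scrambled library 1 (median 0.17), scrambled library 3, or Bmal1 siRNA library 2 or 3, while 15 were without both first libraries (against 5.3% of all genes). The first 4 of these fits called 30, 12, 0 and 0 of all genes higher. Cox6a2, the muscle isoform of a cytochrome c oxidase subunit, was the only call among 62 nuclear genes of oxidative phosphorylation, at 1.32, 0.9 and 1.02 against 2.33, 2.85 and 2.34 FPKM (0.76, adjusted p = 0.0139). Other large called rises outside these lists were Ppp1r3b, which targets protein phosphatase to glycogen (0.70), and the alpha-arrestin Arrdc3 (0.60).

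**Figure D3:**
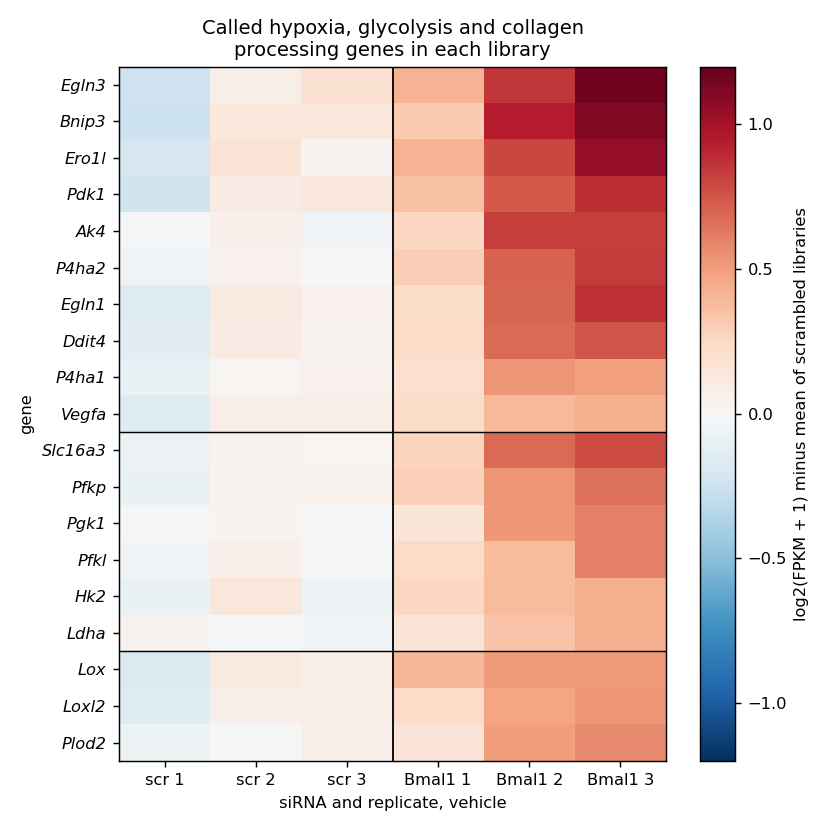
log2(FPKM + 1) minus the mean of the 3 scrambled libraries (colour) for the called hypoxia targets (top block), other called glycolysis genes (middle) and other called collagen processing genes (bottom) in each of the 6 vehicle libraries. Bmal1 siRNA libraries 2 and 3 show the larger values, Bmal1 siRNA library 1 lies between, and scrambled library 1 is lowest for most genes.

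Among enzymes that modify and crosslink collagen a few were called higher. Of 23 tested genes of collagen processing 5 were higher (against 1.07% of all genes), none was lower and 18 were not called (median 0.07). Of the 5, P4ha1 and P4ha2 are also in the hypoxia list. Absence from that list does not show that the others are not hypoxia targets. Lox, the lysyl oxidase that starts crosslinking, was at 157, 189 and 184 FPKM in the scrambled and 233, 251 and 252 FPKM in the Bmal1 siRNA libraries (0.47, SE 0.0694, adjusted p = 0.0204). Every siRNA library was above every control, and the call was kept in 4 of the 6 fits without a library. Loxl2, a related oxidase, was at 48.5, 56.2 and 57.05 against 63.3, 74.9 and 77.3 FPKM (0.41, adjusted p = 0.0392). Plod2, the lysyl hydroxylase of telopeptides, was at 20.6, 21.6 and 22.6 against 24.2, 31.03 and 32.4 FPKM (0.41, adjusted p = 0.0487). Of the list 1 gene was called without scrambled library 1 and none without Bmal1 siRNA library 2 or 3. These fits called 30, 0 and 0 of all genes higher.

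All 10 tested fibrillar and type VI collagen genes had a change above 0 (median 0.13), as had 5884 of all 11187 genes. Only Col5a2 was called (0.27, adjusted p = 0.0433). Col1a1, the main fibrillar chain, was at 2716, 2760 and 2877 against 2895, 2874 and 2947 FPKM (0.06, adjusted p = 0.544). Col1a2 and Col3a1 were at 0.27 and 0.50 (adjusted p = 0.0681 and 0.0734). Long transcripts tended upward as a whole: the median change went from -0.05 in the shortest of 5 length bins to 0.07 in the longest. Over 5 bins of GC content it went from 0.08 in the lowest to -0.07 in the highest. Without scrambled library 1 it went from -0.02 to 0.03 over the length bins and from 0.06 to -0.05 over the GC bins. Without that library the median of the collagens was 0.07, and none was called (0.607% of all genes were). Of 14 tested basement membrane genes 13 were above 0 and none was called (median 0.15), with Agrn, the agrin gene, at 0.29 (adjusted p = 0.0539). An unadjusted p under 0.05 was reached by 9 of the 14, and by 25.5% of all genes. The part of transcript length and GC content in these shifts was not tested beyond the corrected fit, in which the medians of both lists were 0.15.

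Single matrix genes were called beside these lists. Bgn, the proteoglycan biglycan, was at 627, 665 and 685 FPKM in the scrambled and 796, 824 and 815 FPKM in the siRNA libraries (0.30, adjusted p = 0.0308), alone among 21 tested glycoproteins and proteoglycans. The proteases Mmp9 (0.85, 1.12 and 0.94 against 1.55, 2.07 and 1.66 FPKM, 0.48) and Adamts5 (0.33) were the 2 calls among 22 proteases and inhibitors. Both were higher, as were 1.07% of all genes. Of 11 tested integrin subunits 3 were higher (against 1.07% of all genes) and none lower (median 0.22). Itgb8, whose product activates latent TGFb, was at 0.43, 0.57 and 0.63 against 1.1, 1.19 and 1.15 FPKM (0.48, adjusted p = 0.0285). Itgb5 (0.22) and Itga6 (0.39) were the others, and no integrin was called without scrambled library 1, scrambled library 3, or Bmal1 siRNA library 2 or 3. These fits called 30, 12, 0 and 0 of all genes higher.

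Genes of stellate cell activation held few calls. Of 27 tested TGFb pathway genes none was called (median 0.05, with 5 at an unadjusted p under 0.05, as for 25.5% of all genes). Skil, a feedback inhibitor of SMADs, came nearest at 2.35, 2.94 and 2.83 against 3.56, 3.59 and 3.62 FPKM (0.31, adjusted p = 0.0572), and the ligand gene Tgfb2 was at 0.27 (adjusted p = 0.0954). Acta2, smooth muscle actin and the usual marker of activation, was at 56.5, 55.3 and 51.5 against 51.7, 56.6 and 57.9 FPKM (95% interval of the log2 change -0.10 to 0.15). Of 21 contractile genes Tagln alone was called, lower, at 54.5, 43.9 and 40.9 against 36.3, 34.04 and 34.96 FPKM (-0.38, adjusted p = 0.0488). Tagln shares 1241 exon bases with the antisense transcript Gm48529, and scrambled library 1 was its highest. Igfbp4, a binding protein of insulin-like growth factors, was called lower (-0.29, adjusted p = 0.0296), as was the ERK feedback inhibitor Spry4 (-0.37, adjusted p = 0.0417).

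Some genes of antigen presentation were called higher. Of 16 tested genes of MHC class I presentation 6 were higher (against 1.07% of all genes), none was lower and 10 were not called, 3 of them with a change below 0 (median 0.25). H2-K1, a classical class I heavy chain, was at 49.9, 49.2 and 52.6 FPKM in the scrambled and 62.3, 66.3 and 69.8 FPKM in the Bmal1 siRNA libraries (0.38, SE 0.0524, adjusted p = 0.0185). Psmb8, an immunoproteasome subunit, was at 10.3, 9.36 and 9.12 against 12.6, 13.9 and 14.8 FPKM (0.48, adjusted p = 0.0205). No siRNA library overlapped with a control in either gene. Erap1, which trims peptides (0.39), Tap1, a chain of the peptide transporter (0.39), and the class I-like genes H2-Q4 (0.51) and H2-Q7 (0.53) were also called; H2 genes are close copies of each other, so reads may be split among them, and Erap1 shares 834 exon bases with Cast. None of the 16 was called without Bmal1 siRNA library 2 or 3, where 0 of all genes were called higher. Without scrambled library 1, 2 were called (median 0.24; 0.268% of all genes higher), and without both first libraries 8 were (5.3%).

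In the type I interferon list 31 of 32 tested genes were above 0 (median 0.28), as were 5884 of all 11187 genes. Only Xaf1 and Ifih1 were called, both higher, as were 1.07% of all genes. Ifih1, the RNA sensor MDA5, was at 3.56, 3.85 and 3.77 against 4.56, 6.65 and 5.47 FPKM (0.46, adjusted p = 0.048). Xaf1, an interferon-induced antagonist of XIAP, was at 2.75, 2.83 and 2.7 against 3.65, 5.94 and 4.2 FPKM (0.55, adjusted p = 0.048). Bmal1 siRNA library 2 was the highest for both, and the list's median was 0.13 without that library. Ifitm1, which fell, lies outside this list.

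ATF4 targets, induced by amino acid shortage and other stress, split in direction: 5 of 27 tested were called higher and 1, Cebpb, lower (median 0.07). Of all genes 1.07% were called higher and 1.12% lower. Trib3, a pseudokinase, was at 34.3, 36.8 and 37.5 against 40.7, 48.2 and 45.6 FPKM (0.30, adjusted p = 0.0464). Pycr1, which makes proline (0.33), Asns, which makes asparagine (0.20), Vldlr, a lipoprotein receptor at 6.37, 9.49 and 10.3 against 11.5, 15.7 and 17.4 FPKM (0.71), and Ddit4 completed the rises. Without scrambled library 1 no rise was called, and without Bmal1 siRNA library 2 or 3, or scrambled library 3, no gene of the list was. Over all genes the first of these fits called 30 higher. The other fits called 4, 2 and 24 genes in either direction. None of 24 tested genes of ER chaperones and the unfolded protein response was called (median 0.04). An unadjusted p under 0.05 was reached by 5 of them, and by 25.5% of all genes. Wipi1, an autophagy protein, and Bnip3 were the 2 calls among 35 lysosome and autophagy genes (0.33 for Wipi1, adjusted p = 0.0313). Both were higher, as were 1.07% of all genes.

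Large housekeeping groups had medians slightly below 0. Changes were below 0 in 54 of 62 oxidative phosphorylation genes (median -0.08), 45 of 51 mitochondrial ribosomal protein genes (median -0.10) and 54 of 71 cytosolic ribosomal protein genes (median -0.06). Of all 11187 genes 5303 were below 0. No fall was called among the 3 groups (19, 16 and 11 genes at an unadjusted p under 0.05 in either direction, as for 25.5% of all genes). Without scrambled library 1 these medians were -0.04, -0.04 and -0.01. Cell cycle genes, which SV40 large T antigen drives by way of RB proteins, showed no call among 22 genes of G1 control, 32 of DNA replication and 30 of mitosis (medians -0.003, -0.01 and 0.04; 6, 5 and 11 at an unadjusted p under 0.05). The same was true of 29 cholesterol genes, 29 of fatty acid synthesis and storage, 31 of NRF2 and glutathione, 15 of YAP and TEAD and 10 of retinoid metabolism, of which 9, 11, 6, 5 and 2 had an unadjusted p under 0.05.

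**Figure D4:**
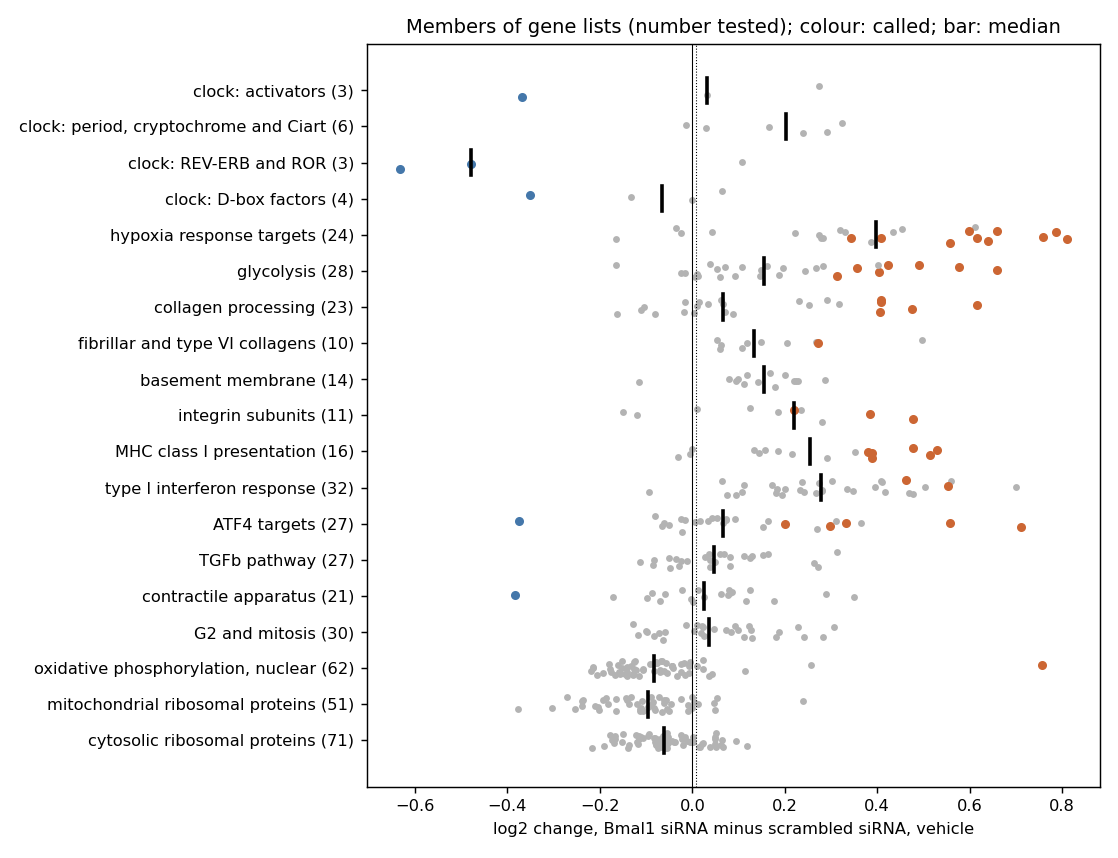
log2 change with Bmal1 siRNA under vehicle (x axis) for each tested member of 19 gene lists (rows, with the number tested); coloured points were called and the black bar is the median of the list. The hypoxia list has its median at 0.40 and the MHC class I list at 0.25, while the ribosomal lists lie just below 0.

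In the TGFb libraries most of these genes were not called, or were called in the opposite direction. Of the 245 genes 241 were also tested there: 21 were called in the same direction, 50 in the opposite direction and 170 were not called, where 14.0% of all 11153 genes tested under TGFb were called (8.93% higher, 5.1% lower). The sign was the same for 44.0% of the 241 and for 53.4% of all genes in both fits. The effect differed between the treatments for 130 of the 241 genes (interaction, adjusted p under 0.05), and for 14.4% of all genes. The 241 were chosen for their vehicle effect, which also enters the interaction. A share above that of all genes is therefore partly built in by the choice. The hypoxia list had a median of -0.06 under TGFb, with 1 gene called lower and none higher, and the MHC class I list had a median of -0.16 with no call.

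Genes that moved alike in both treatments included Arntl, whose fall was greater under TGFb (-1.13, adjusted p = 0.000448; interaction adjusted p = 0.000526). The guidance cue genes Sema3a and Sema3c rose in both: Sema3a was at 11.5, 13.1 and 13.04 against 16.3, 17.02 and 16.8 FPKM under vehicle (0.39, adjusted p = 0.024) and changed by 0.53 under TGFb (adjusted p = 0.00238). Sema3c changed by 0.43 and 0.88. Itgb8 (0.48 and 0.56), Adamts5 (0.33 and 0.64) and Rnd3 (0.28 and 0.77), also rose in both. Zdhhc16, a palmitoyltransferase, was lower in both (-0.32 and -0.77), and shares 959 exon bases with Mms19.

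Nr1d1 and Nr1d2 were not called under TGFb (-0.33 and -0.18, adjusted p = 0.0839 and 0.178), and their effects were not called different between treatments (interaction adjusted p = 0.164 and 0.162). Dbp, level under vehicle, was higher with the siRNA under TGFb (0.77, adjusted p = 0.0304). Hand2 (-0.43 under vehicle, 0.42 under TGFb) and Ahr (0.61 and -0.58) were called in opposite directions, as were Lox (0.47 and -0.68), Plod2 (0.41 and -0.58) and Vegfa (0.34 and -0.77).

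**Figure D5:**
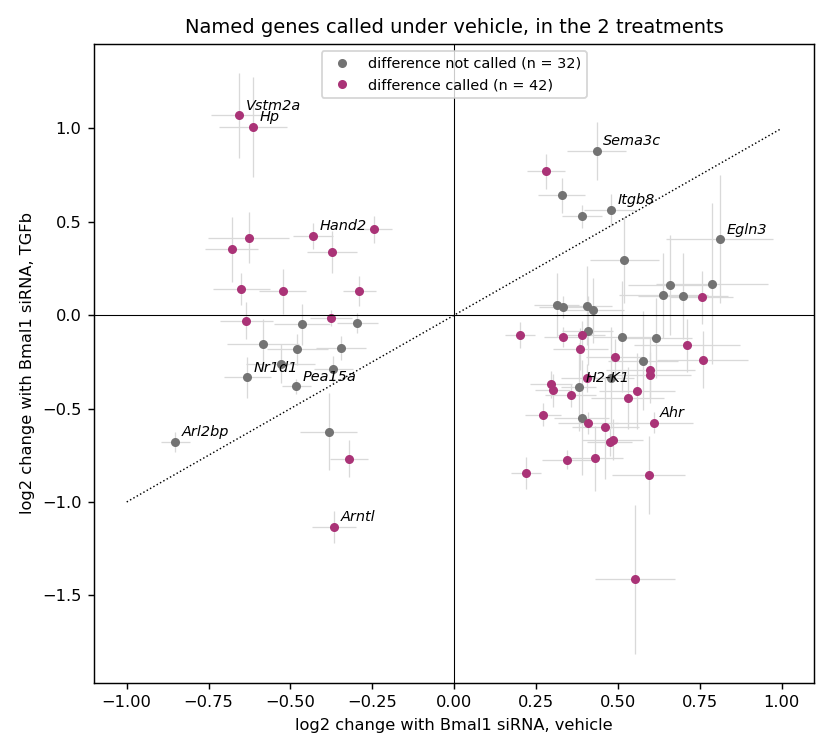
log2 change with Bmal1 siRNA under vehicle (x axis) and under TGFb (y axis), with SE, for 74 genes called under vehicle and tested under TGFb (those the naming rule chose); purple points are the 42 whose effect differed between the treatments, and the dotted line marks equal change. Arl2bp and Pea15a lie near the line, Arntl lies below it, and Ahr, Hand2, Hp and Vstm2a lie in the quadrants of opposite sign. The genes were chosen for their vehicle effect, which also enters the difference between the treatments.

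Markers of cell types were examined beside these changes. Of 18 stellate and fibroblast markers 16 were in the table and 12 reached 1 FPKM, their sum running from 5130 to 5554 FPKM in the scrambled and 5541 to 5908 FPKM in the Bmal1 siRNA libraries, mostly Col1a1, Vim and Col1a2. Among defining stellate genes Pdgfrb was at 10.4 to 13.1 FPKM and Des at 0.52 to 1.23 FPKM, while Gfap was at 0 to 0.04 FPKM. Lrat and Reln were absent from the deposited values, and Rgs5, Ngfr and Hgf stayed at or under 0.42 FPKM. Pdgfra was at 38.3 to 47.9 FPKM and Lhx2 at 13.3 to 14.9 FPKM. Of 11 mesothelial markers 9 reached 1 FPKM, with Upk3b at 164 to 193 FPKM and Wt1 at 29.1 to 32.9 FPKM; their sum was 400 to 463 FPKM in the scrambled and 453 to 489 FPKM in the siRNA libraries, so transcripts of that list were plentiful in both groups. Krt8, on the mesothelial and cholangiocyte lists, was called higher (2.86, 3.28 and 3 against 4.02, 5.42 and 6.05 FPKM, 0.59). Of 10 endothelial markers present 4 reached 1 FPKM, with a sum of 82.7 to 86.8 FPKM in the scrambled and 79.3 to 81.5 FPKM in the siRNA libraries, mostly Eng (67.2 to 76.05 FPKM). Tek was called higher (1.3, 1.77 and 1.55 against 2.13, 3.02 and 2.8 FPKM, 0.52), and the defining genes Pecam1 and Cdh5 stayed at or under 0.08 FPKM. The leukocyte list reached 8.22 to 14.4 FPKM in sum, nearly all from Cd14 and Cd68, with Lyz2, Laptm5 and Itgam at or under 0.08 FPKM. Of 10 hepatocyte markers present 4 reached 1 FPKM, with a sum of 202 to 222 FPKM in the scrambled and 217 to 252 FPKM in the siRNA libraries. Nearly all of it was Trf (190 to 240 FPKM), while Apob and Cps1 were at 0 and Hnf4a at or under 0.01 FPKM.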

How the data were processed

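RNA sequencing of EMS404 cells gave 12 libraries, of which the 6 vehicle libraries are the subject here. The authors deposited expression as FPKM, scaled to library size and rounded to 2 decimals, per the file headers; FPKM values hold no read counts, so depth and counting error are unknown, and whole reads could not be recovered. Per the submitters' processing notes the build was mm10 and the tools were HISAT2 2.0.4, Bowtie2 2.2.5, RSEM and DESeq2, with no role given; strand use and annotation version are not stated there. Of 16290 lines 555 without an identifier (1.304% to 1.464% of each FPKM total) were left out, 15 repeated identifiers were reduced to the line with the higher mean, and 15694 of 15720 identifiers matched a GENCODE M21 symbol. Promoter windows came from RefSeq on GRCm38.p6.

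Values were tested as log2(FPKM + 1) two-sided, where the mean over the libraries fitted was 0.5 FPKM or more, with limma 3.58.1 in R 4.3.3 (intensity trend, Benjamini-Hochberg adjustment over all genes tested). Fold changes on this scale understate those of low genes. The vehicle and TGFb comparisons each used their own 6 libraries; the interaction used all 12. The 6-library fit was chosen knowing that it calls more genes than the 12-library fit, because the Bmal1 siRNA libraries under TGFb spread far more than the vehicle libraries. The lists, the genes described and the tests were chosen with earlier results of these data known. Genes named were the core clock, the 12 largest called rises and falls without overlap between groups and with at least 1 FPKM in the higher group, up to 4 called members per list (2 with the smallest p where none was called), and calls kept in every fit without a library. Vegfa, Hif1a, Ndrg1, Hk2, Ldha, Pgk1, Plod2, Col1a1, Col1a2, Col3a1, Acta2, H2-Q7, Tap1, Asns, Sema3a, Sema3c, Rnd3, Zdhhc16, Med10, Med27, Med29, the other markers and the V-ATPase genes were named after their values were seen. Some genes that meet the rule are not described.

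Alternatives were other pseudocounts (0.1, 5), filters, scalings, limma options, the replicate number as a block, and each library left out; the fit without both first vehicle libraries and the length and GC correction were added after the data were seen. The fit was tested on simulated data with 200 changed genes among 11111 for the vehicle comparison, at log2 changes of 0.25, 0.5 and 1, of which it recovered 0%, 83.5% and 100%. It made 0, 6 and 9 false calls. The changed genes were drawn above a minimum level, and the noise was independent between genes. Low genes and shifts shared by a whole library, as in scrambled library 1, were thus not covered.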

Additional observations from a re-analysis of the deposited data

Results flagged for a closer look

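For the genes below, the siRNA effect under TGFb differed from that under vehicle (limma interaction, adjusted p under 0.05, as for 14.4% of all genes); values are the effect under TGFb minus the effect under vehicle on the log2 scale. Most were named for their vehicle result, and the vehicle libraries enter both values.

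Among clock genes the difference was Arntl -0.77, the fall of the target being larger under TGFb. It was Bhlhe40 -1.78, Bhlhe41 -0.93, Ciart -0.73, Nfil3 -0.62 and Dbp 0.77 for the other clock members; Bhlhe40, higher in all 3 siRNA libraries under vehicle, was lower with the siRNA under TGFb (-1.24, adjusted p = 0.000743).

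In the hypoxia list the difference was called for 5 genes below 0 and 1 above, in glycolysis for 2 below and 3 above, and in collagen processing for 6 below and 1 above. The genes of these lists named here for their vehicle result had values of Ero1l -0.997, Egln1 -0.89, Ddit4 -0.96, Vegfa -1.12, Hk2 -0.79, Pfkp -0.72, Lox -1.16, Loxl2 -0.74 and Plod2 -0.99. Cited2, lower under vehicle, differed by 0.70. Among matrix and adhesion genes the values were Col1a1 -0.32, Col1a2 -0.43, Col5a2 -0.81, Agrn -0.60, Bgn -0.70, Mmp9 -1.15, Itgb5 -1.07 and Itga6 -0.57.

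Genes of interferon response and antigen presentation had differences of Xaf1 -1.97, Ifih1 -1.06, Erap1 -0.49 and H2-Q7 -0.97, with Ifitm1 1.03 in the other direction. Stress genes of the ATF4 list had Trib3 -0.67, Asns -0.31, Vldlr -0.87 and Cebpb 0.36.

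Regulators and signalling genes had Ahr -1.18, Lef1 -1.196, Hand2 0.85, Skil -1.37, Spry4 0.71, Igfbp4 0.42 and Rnd3 0.49. The remaining genes were Arrdc3 -0.92, Cox6a2 -0.66, Krt8 -1.45, Wipi1 -0.45 and Zdhhc16 -0.45 below 0, and Vstm2a 1.73, Hp 1.62, Peg10 1.04, Hist1h4i 0.79, Rbm38 0.65 and Cd14 0.60 above 0, the latter being lower with the siRNA under vehicle.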

How the results depend on the processing

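The number of genes called under vehicle (245) was 74 in the fit over all 12 libraries, 1645 with array weights, 2 without a filter on low values (Arl2bp and Pea15a), 53 without the intensity trend, 139 with quantile normalization and 1266 without both first libraries. It ran from 2 to 504 when a library was left out, and from 172 to 291 under the other scalings, filters and options. Medians over all genes moved by less than 0.1 under each scaling. Whether the replicate numbers pair the vehicle samples is not settled by these values. The correlations of deviations were 0.17, 0.07 and 0.01, and 4 of 6 samples correlated best with their own number. The main fits took no account of a pairing. A fit with the replicate number as a block called 1020 genes under vehicle, 2719 in place of 1565 under TGFb and 1893 in place of 1612 for the interaction. Leaving out a library gave 417 to 1673 calls under TGFb and 991 to 1872 for the interaction. The Arntl change kept its sign under each alternative; it was not called without a filter (-0.37, adjusted p = 0.123) and ranged from -0.40 to -0.34 when a library was left out. Over single named genes and their alternatives the outcome, called or not called, was the same in 2447 cases. These include genes that were called in neither fit, so 2447 is not a number of kept calls. A call was gained in 139 cases and lost in 538, and no called change reversed. Except where fewer samples or more genes tested are the alternative itself, the cause was not tested. Without read counts, the depth behind genes under 1 FPKM (Npas2, Hlf, Bhlhe41, Lef1) is unknown.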

Other observations

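Subunits of the Mediator complex, which links transcription factors to RNA polymerase II, held 3 called falls among 29 tested genes and no rise. Of all genes 1.12% were called lower. The median was -0.07 against 0.01 for all genes, and the family was chosen after its values were seen. Med10 was at 28.9, 27.7 and 25.7 FPKM in the scrambled libraries and 19.9, 21.96 and 21.1 FPKM with the Bmal1 siRNA (-0.37, adjusted p = 0.0241), and was also lower under TGFb (-0.29, adjusted p = 0.0376). It shares 4168 exon bases with the transcript Gm26819. Med27 (-0.35, adjusted p = 0.048) and Med29 (-0.30, adjusted p = 0.0449) were the others, and neither was called under TGFb. V-ATPase subunits, which acidify lysosomes, held 2 called falls, Atp6v0b and Atp6v0c, among 17 tested genes (median -0.13, against 1.12% of all genes called lower). Class 3 semaphorins held 2 called rises, Sema3a and Sema3c, among 7 tested genes (median 0.26, against 1.07% of all genes called higher). The V-ATPase and semaphorin genes were also named after their values were seen. Replication-dependent histones, a family outside the gene lists, held 1 called rise (Hist1h3h) and 1 called fall (Hist1h4i) among 17 tested genes (median -0.03). Of all genes 1.07% were called higher and 1.12% lower. Histone genes of this family are near-identical, so both calls are uncertain.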
